A study of Mus musculus with 13 samples.

Results

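The places where the transcription factor OLIG2 met the histone marks H3K4me3 and H3K27me3 in newly formed oligodendrocytes (NFOs) were examined. All 16911 OLIG2 peaks listed for NFOs were used, out of 24295 OLIG2 peaks listed for oligodendrocyte precursor cells (OPCs) and NFOs together. Each was set against 21736 H3K4me3 peaks and 12688 H3K27me3 peaks of NFOs. A peak counted as on a mark when they shared at least 1 bp. The series holds 13 samples on oligodendrocyte formation from neural stem cells, of which the 3 ChIP-Seq libraries of NFOs and the 3 matching libraries of OPCs were used. Both cell types were untreated and came from C57BL/6 mouse brain at postnatal day 7, with the sexes in about equal number. OPCs were collected by immunopanning on an antibody to PDGFRα and NFOs afterwards on an antibody to GalC, once microglia and endothelial cells had been depleted. Every condition had 1 library, so no difference between conditions could be tested. All intervals are exact (Clopper-Pearson, 95%), and they hold counting error alone.

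OLIG2 is a basic helix-loop-helix factor that drives the formation of the oligodendrocyte lineage and binds E-boxes, short sites of the form CANNTG. H3K4me3 is laid down at active and poised promoters, mostly around transcription start sites (TSSs). H3K27me3 is the mark of Polycomb repressive complex 2 and covers silenced genes, often developmental regulators, and a region that carries both marks is called bivalent. NFOs are postmitotic cells that have begun to switch on myelin genes.

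The labels of both histone libraries of NFOs give the antibody of the other mark than their titles do, and the same holds for OPCs. The titles were followed here. The peak centres of the NFO list titled H3K4me3 lay within 1 kb of a TSS in 42.0% of cases, against 14.3% for the list titled H3K27me3. The marks also differed in width, with a median of 256 bp for H3K4me3 and 580 bp for H3K27me3, and they covered 10.4 Mb and 14.1 Mb of the genome. The OLIG2 peaks were nearly uniform, 99.9% of them 236 bp wide, with a median fold enrichment over the control of 8.12 and a range of 2.00 to 189. As a check of the cells, genes with only H3K4me3 within 2 kb of the TSS were counted. They were 10 of 12 OPC identity genes, 5 of 10 NFO markers, 3 of 17 myelin genes and 5 of 10 neural stem cell genes. Of other cell types they were 4 of 10 astrocyte markers, 4 of 11 neuron markers and no microglia or endothelial marker. The share was 25.7% of all genes and 38.9% of protein-coding genes. Neither mark was there for 12 of 17 myelin genes, 2 of 12 OPC identity genes, 3 of 10 NFO markers and 3 of 10 neural stem cell genes. The same held for 9 of 10 microglia markers, 4 of 7 endothelial markers, 4 of 10 astrocyte markers and no neuron marker. Here the share was 66.7% of all genes and 51.5% of protein-coding genes. Mbp, Mag and Mog, which make proteins of myelin, were among the 12 myelin genes with neither mark. Most myelin promoters of these NFOs thus had no listed H3K4me3. How many reads each peak rests on is not known.

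The sequences of 11 OLIG2 summits are shown because they carry the pattern described next and stand for the 4 mark classes: the strongest peaks of a class and peaks at genes of the oligodendrocyte lineage. Each is 201 bases of GRCm38/mm10 centred on the summit, plus strand, 5′ to 3′. Capitals mark E-boxes (CANNTG) and runs of at least 10 A or at least 10 T, and none of the windows touched an annotated exon. The first 4 lay on H3K4me3 alone. They were a peak of fold enrichment 189 upstream of Atg2a, a gene of autophagosome formation, at chr19:6241357-6241557, and one of 112 in an intron of Ppp1r10, which encodes a regulatory subunit of protein phosphatase 1, at chr17:35919100-35919300. The other pair lay in introns of Zfp536, a zinc finger repressor of neuronal differentiation, at chr7:37689388-37689588, and of Ugt8a, the galactosyltransferase that makes the myelin lipid galactosylceramide, at chr3:125935962-125936162.
Atg2a: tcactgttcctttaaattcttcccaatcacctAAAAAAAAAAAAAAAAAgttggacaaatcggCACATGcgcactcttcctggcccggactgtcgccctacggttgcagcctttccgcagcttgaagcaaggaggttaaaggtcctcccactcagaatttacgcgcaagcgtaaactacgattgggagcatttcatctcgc
Ppp1r10: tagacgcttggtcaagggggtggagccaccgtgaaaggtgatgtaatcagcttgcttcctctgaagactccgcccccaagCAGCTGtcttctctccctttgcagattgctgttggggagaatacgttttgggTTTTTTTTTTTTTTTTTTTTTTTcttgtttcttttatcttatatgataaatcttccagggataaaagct
Zfp536: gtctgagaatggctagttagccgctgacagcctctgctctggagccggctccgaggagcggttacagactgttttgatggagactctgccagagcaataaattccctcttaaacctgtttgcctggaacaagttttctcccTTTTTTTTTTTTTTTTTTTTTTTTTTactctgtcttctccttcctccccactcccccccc
Ugt8a: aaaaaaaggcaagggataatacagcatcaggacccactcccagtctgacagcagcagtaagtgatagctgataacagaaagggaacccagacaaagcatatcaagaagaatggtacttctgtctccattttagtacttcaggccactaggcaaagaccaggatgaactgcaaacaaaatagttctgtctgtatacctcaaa

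The next pair lay on H3K27me3 alone. They were near Foxd3, a forkhead factor of the neural crest, at chr4:99661071-99661271, and upstream of Bmp4, a signalling ligand, at chr14:46394292-46394492. A peak upstream of Pax6, a homeobox gene of neural progenitors, lay on both marks at chr2:105665332-105665532.
Foxd3: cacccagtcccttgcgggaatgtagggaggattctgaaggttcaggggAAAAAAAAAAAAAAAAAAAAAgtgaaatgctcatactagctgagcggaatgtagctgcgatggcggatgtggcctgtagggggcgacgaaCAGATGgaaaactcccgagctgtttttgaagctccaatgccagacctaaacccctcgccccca
Bmp4: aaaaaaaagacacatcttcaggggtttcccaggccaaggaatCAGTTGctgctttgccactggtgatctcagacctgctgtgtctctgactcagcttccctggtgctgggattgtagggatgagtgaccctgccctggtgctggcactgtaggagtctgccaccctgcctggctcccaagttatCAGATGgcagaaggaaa
Pax6: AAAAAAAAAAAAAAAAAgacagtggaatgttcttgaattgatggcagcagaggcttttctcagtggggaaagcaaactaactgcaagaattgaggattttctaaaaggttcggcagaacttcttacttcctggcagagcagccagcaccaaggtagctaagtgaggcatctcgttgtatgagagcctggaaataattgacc

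The last 4 lay on neither mark. They were the peaks next to the TSS of Bcas1, a marker of early myelinating cells, at chr2:170427976-170428176, upstream of Adap2, an Arf GTPase-activating protein, at chr11:80148317-80148517, in an intron of Fyn, a Src family kinase of oligodendrocyte maturation, at chr10:39502835-39503035, and upstream of Enpp6, a choline phosphodiesterase of NFOs, at chr8:46985153-46985353.
Bcas1: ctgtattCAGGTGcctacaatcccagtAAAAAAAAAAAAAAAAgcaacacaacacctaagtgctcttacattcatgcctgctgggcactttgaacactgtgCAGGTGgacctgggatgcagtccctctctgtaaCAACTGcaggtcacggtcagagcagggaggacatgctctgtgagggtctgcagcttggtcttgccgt
Adap2: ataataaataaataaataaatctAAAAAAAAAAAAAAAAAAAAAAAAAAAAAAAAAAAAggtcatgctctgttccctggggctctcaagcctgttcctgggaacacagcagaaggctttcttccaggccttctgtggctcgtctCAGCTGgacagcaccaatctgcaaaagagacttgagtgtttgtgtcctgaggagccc
Fyn: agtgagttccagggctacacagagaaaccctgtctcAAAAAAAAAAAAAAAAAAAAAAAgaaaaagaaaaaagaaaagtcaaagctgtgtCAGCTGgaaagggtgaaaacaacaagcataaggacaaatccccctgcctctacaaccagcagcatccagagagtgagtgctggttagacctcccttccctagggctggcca
Enpp6: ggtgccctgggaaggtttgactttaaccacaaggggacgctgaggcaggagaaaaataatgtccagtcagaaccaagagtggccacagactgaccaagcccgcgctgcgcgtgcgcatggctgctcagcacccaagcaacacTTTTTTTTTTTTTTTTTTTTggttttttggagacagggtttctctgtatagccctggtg

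All 11 peaks had a run of A before the summit or a run of T after it. They were chosen to show this pattern, so their count does not tell how common it is. In Ugt8a and Bmp4 the run reached beyond the start of the window, 110 and 102 bp before the summit, so it is not in capitals there. In the other 9 its middle lay 42 to 92 bp from the summit. Foxd3 and Bmp4 held the E-box CAGATG, and Ppp1r10, Adap2 and Fyn held CAGCTG. Zfp536, Ugt8a, Pax6 and Enpp6 held no E-box in these windows.

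The runs were noticed in sequences of OLIG2 summits and then counted over the whole list. Of the 16911 peaks, 65.3% (64.6 to 66.0) had a run of at least 10 A or T within 100 bp of the summit, against 4.94% of windows 1 kb to either side and 2.99% of windows of the same length at all TSSs. The position followed the base. Within 140 bp of the summit, 6767 A runs lay before it and 135 after it, while 154 T runs lay before it and 6837 after it. Both had their most common place 40 to 60 bp from the summit. The share of peaks with a run rose with fold enrichment, from 58.5% at a fold of 5 or less to 74.7% at 10 to 20 and 93.3% above 40. OLIG2 peaks of OPCs had the same feature, 66.8% against 4.97% to the sides. The histone peaks of NFOs had runs near their edges, counted from 150 bp outside to 50 bp inside. An A run lay at the start of 32.2% of H3K4me3 peaks and a T run at the start of 0.888%, and for H3K27me3 these shares were 14.2% and 0.710%. The OLIG2 libraries were made with a kit that adds a homopolymer tail to single-stranded DNA and copies the DNA from a primer on that tail, and the library kit of the histone marks is not given in the sources used here. The part of the kit in the runs was not tested. Since all the libraries had runs beside their peaks, the main overlaps below are also given for OLIG2 peaks without a run.

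**Figure D1:**
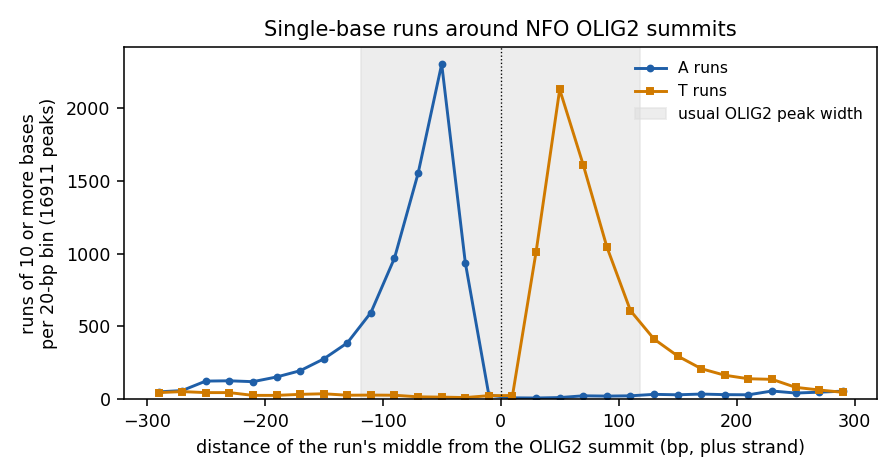
Number of runs of at least 10 A (circles) or 10 T (squares) per 20 bp of distance between the middle of the run and the OLIG2 summit, over all 16911 NFO peaks, and the grey band is the usual peak width of 236 bp. A runs peaked at 2300 between 60 and 40 bp before the summit and T runs at 2126 between 40 and 60 bp after it.

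Most NFO OLIG2 peaks lay outside both marks, and those on a mark were mainly on H3K4me3. On H3K4me3 were 1392 peaks, 8.23% (7.82 to 8.66), and on H3K27me3 were 412, 2.44% (2.21 to 2.68). Both marks were met by 153 peaks, 0.905% (0.768 to 1.06). When the OLIG2 peaks were shifted together along each chromosome by random distances 1000 times, a mean of 97.2 (63 to 127) fell on H3K4me3 and 114 (84 to 152) on H3K27me3. The observed counts were 14.3 and 3.61 times these means. For both marks together the shifted mean was 6.98 (0 to 17), and the observed count was 21.9 times it. Shifts of 50 kb to 1 Mb, which keep a peak in its neighbourhood, gave ratios of 12.4, 2.96 and 19.2. Per Mb of sequence there were 122 OLIG2 summits in H3K4me3 alone, 18.2 in H3K27me3 alone, 230 in regions of both marks and 5.67 elsewhere.

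**Figure D2:**
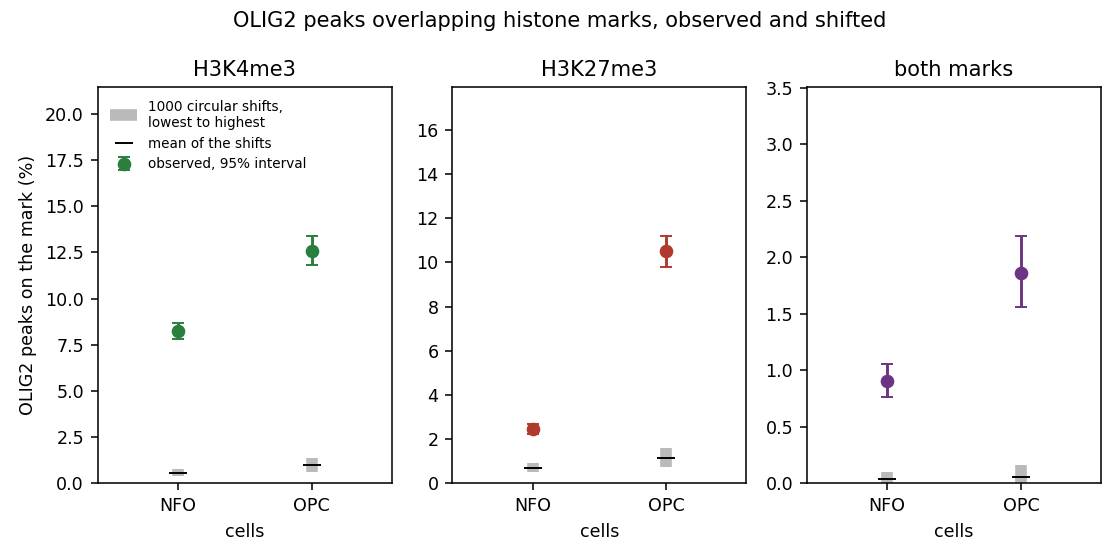
Share of OLIG2 peaks on H3K4me3, on H3K27me3 and on both marks in NFOs and OPCs (points with exact 95% intervals), beside the mean (black line) and the range (grey bar) of 1000 circular shifts, each panel with its own axis. In NFOs the 3 observed shares of 8.23%, 2.44% and 0.905% lay above the highest shift.

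The overlap was higher at peaks with a run. Of the 11045 peaks with a run within 100 bp, 9.63% (9.09 to 10.2) lay on H3K4me3 and 2.78% (2.48 to 3.10) on H3K27me3. Of the 5866 without, 5.59% (5.02 to 6.21) and 1.79% (1.47 to 2.16) did, 9.73 and 2.68 times their shifted means. The 2577 OLIG2 peaks with no run within 300 bp had 69 members on H3K4me3, 2.68% (2.09 to 3.38) and 4.73 times the shifted mean of 14.6 (5 to 24). On H3K27me3 they had 27, 1.05% (0.692 to 1.52), and the shifts had 17.5 (6 to 33), so that count lay within the shifted range. When the histone peaks were also limited to those with no run within 300 bp, 39 OLIG2 peaks lay on H3K4me3 (shifts 0 to 12) and 15 on H3K27me3 (shifts 1 to 16). The H3K4me3 counts were above every shift in both settings, and the H3K27me3 counts were within the range of the shifts. Runs themselves were often on marks. A window of 236 bp beside each of the 608157 runs of the genome overlapped H3K4me3 in 3.42% and H3K27me3 in 1.37% of cases, which is above the 0.575% and 0.675% of the shifted OLIG2 peaks. It overlapped an OLIG2 peak in 2.67% of cases. The part of the runs in the overlap of OLIG2 with each mark was not tested.

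The OLIG2 peaks formed 4 classes. On H3K4me3 alone were 1239 (7.33%), on H3K27me3 alone 259 (1.53%), on both 153 and on neither 15260 (90.2%). Median fold enrichment was 9.88, 8.03, 9.81 and 7.98 in this order. Within 1 kb of a TSS were 49.1% of the first class, 10.0% of the second, 36.6% of the third and 6.02% of the fourth. A run within 100 bp was found for 76.4%, 73.0%, 77.1% and 64.2% of their peaks.

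Peaks that missed a mark did not crowd around it. Only 160 OLIG2 peaks lay within 1 kb of H3K4me3 without touching it, against 250 (182 to 299) under the shifts, and 72 lay so near to H3K27me3 against 142 (103 to 179). The ratios were 0.640 and 0.508. The 23 peaks within 250 bp of H3K4me3 that just missed it had a median fold enrichment of 9.30, and the 12 that just missed H3K27me3 had 9.71. Between 1 and 5 kb from H3K4me3 there were 1081 peaks, 1.22 times the shifted mean, and over 100 kb 4136, 0.691 times. The median distance to H3K4me3 was 38.8 kb, against 61.3 kb when shifted along the whole chromosome and 51.8 kb when shifted by up to 1 Mb. The median distance to H3K27me3 was 161 kb, against 213 and 167 kb. The gap to the local shifts was larger for H3K4me3 than for H3K27me3.

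The share on H3K4me3 differed by place. Of 1609 peaks within 1 kb of a TSS, 41.3% (38.8 to 43.7) lay on it, where shifted peaks at TSSs did in 5.79% (3.10 to 8.39). The share was 12.5% of 1976 peaks at 1 to 3 kb, 2.91% of 6983 in gene bodies and 4.38% (3.89 to 4.92) of 6343 intergenic peaks, the last against 0.232% when shifted. H3K27me3 varied less, with 5.10%, 4.30%, 1.78% and 1.91% at the same places. At TSSs and over 3 kb away, peaks with a run were more often on H3K4me3. At TSSs the share was 46.2% with a run and 30.5% without, and over 3 kb away it was 4.36% and 2.21%. At 1 to 3 kb the shares were 13.9% and 10.0%, with overlapping intervals. Windows beside all runs of the genome gave 19.4% at TSSs and 2.12% over 3 kb away, below the shares of the peaks with a run. These windows are no baseline for peaks without a run, whose shifted shares by place were not computed. Over all OLIG2 peaks the shifted shares were 0.183% in gene bodies and 0.232% between genes. Among the peaks with no run within 300 bp, 49 of 220 at TSSs (22.3%, 17.0 to 28.4) lay on H3K4me3. In gene bodies 3 of 1079 and between genes 9 of 1013 did. The other OLIG2 peaks on H3K4me3 there, out of 203 in gene bodies and 278 between genes, had a run within 300 bp.

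**Figure D3:**
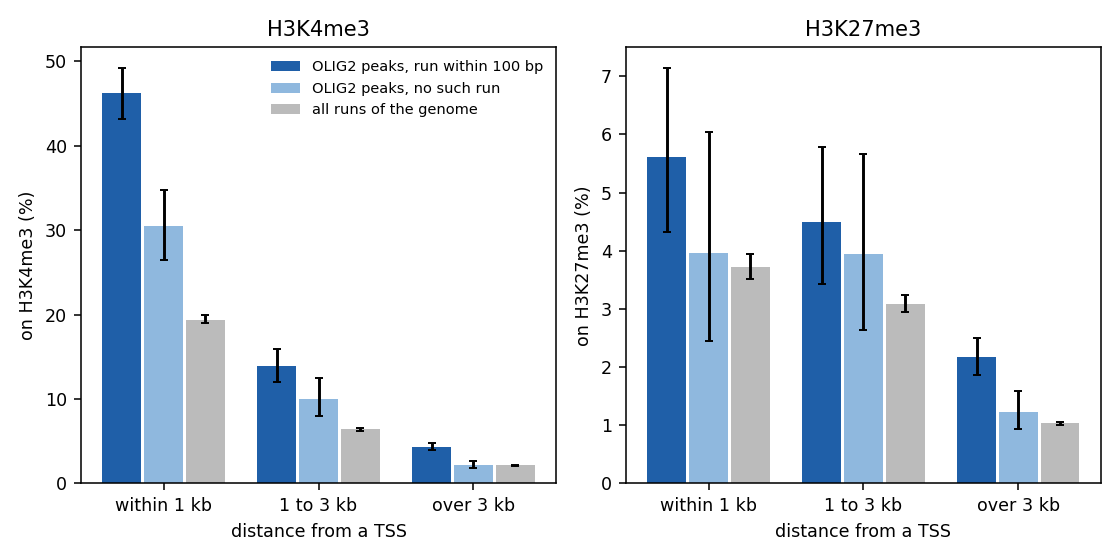
Share of NFO OLIG2 peaks on H3K4me3 (left) and H3K27me3 (right) by distance from a TSS, for peaks with and without a run of at least 10 A or T within 100 bp, beside windows next to all 608157 such runs in the genome, with exact 95% intervals and separate axes. On H3K4me3 within 1 kb of a TSS the bars stand at 46.2%, 30.5% and 19.4%.

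Distal H3K4me3 was narrow with and without OLIG2. Over 1 kb from any TSS, H3K4me3 peaks had a median width of 241 bp with OLIG2 and 210 bp without, at a median mark fold enrichment of 3.83 and 3.82. The 416 peaks on H3K4me3 alone and over 3 kb from a TSS sat on H3K4me3 regions of median width 235 bp, 74.3% of them under 500 bp, with a median mark fold enrichment of 3.73. At TSSs the 608 peaks of that class sat on regions with a median of 624 bp and a mark fold enrichment of 10.6. H3K27me3 alone was wider under OLIG2, with a median of 729 bp, and 16 of 259 regions were at least 5 kb wide. Around the TSS, 27.8% (24.3 to 31.5) of the peaks on H3K4me3 alone lay 100 to 500 bp upstream and 23.2% (19.9 to 26.8) in the shorter window within 100 bp on either side. Of the promoter peaks on neither mark, 20.7% (18.1 to 23.4) and 13.4% (11.2 to 15.8) lay in the same windows.

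Stronger OLIG2 peaks were more often on H3K4me3. In 5 bins of fold enrichment (5 or less, 5 to 10, 10 to 20, 20 to 40 and above 40) the share on H3K4me3 was 5.71%, 6.44%, 10.9%, 28.0% and 35.6%. Within 1 kb of a TSS it went from 23.0% (17.8 to 28.9) to 92.3%, or 12 of 13 peaks in the top bin. Over 3 kb away it went from 3.33% to 8.37% at 20 to 40, and the top bin held only 28 peaks. H3K27me3 showed 2.57%, 2.20%, 2.64%, 3.60% and 6.67%, with overlapping intervals. The share of peaks with a run rose over the same bins, as given above. Among peaks lacking a run, the share on H3K4me3 was 5.27% at a fold of 5 or less, 4.45% at 5 to 10, 8.41% at 10 to 20 and 20.5% (9.80 to 35.3) at 20 to 40. Among peaks with a run it was 6.03%, 7.72%, 11.8% and 29.0%. In both groups the share was higher at 10 to 20 than at 5 to 10, beyond the intervals.

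**Figure D4:**
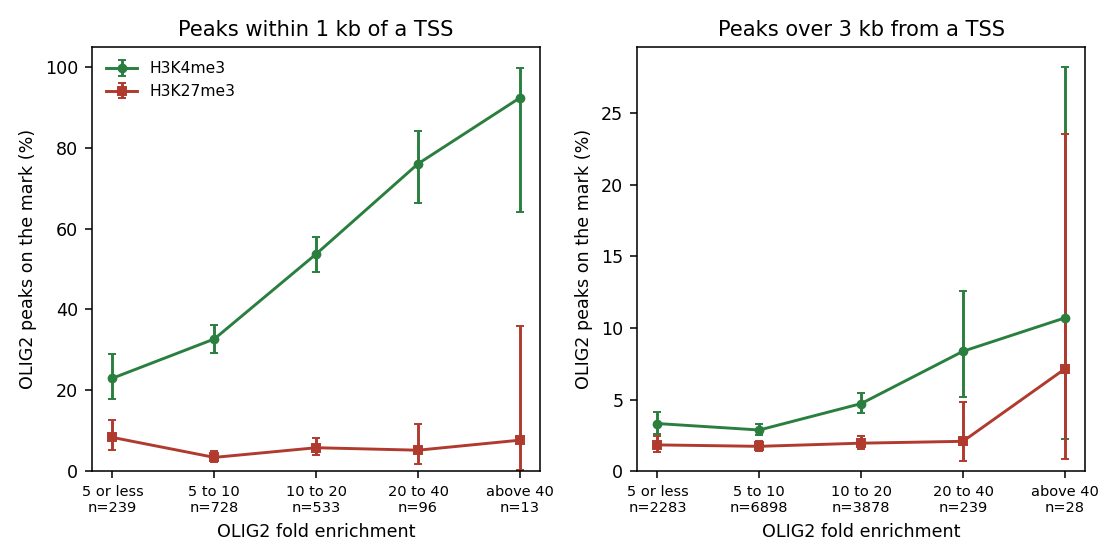
Share of NFO OLIG2 peaks on H3K4me3 (circles) and H3K27me3 (squares) by OLIG2 fold enrichment, within 1 kb of a TSS (left) and over 3 kb away (right), with exact 95% intervals, the number of peaks under each bin and separate axes. The H3K4me3 share at TSSs rises from 23.0% to 92.3%, and H3K27me3 stays between 3.43% and 8.37%.

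The strongest peaks on H3K4me3 alone were nearest Atg2a (fold enrichment 189, 211 bp upstream of the TSS), Ppp1r10 (112), Ccdc65 (61.0), a gene of motile cilia, Limch1 (57.3), an actin regulator, and Scaf8 (55.4), a factor of transcription termination. On H3K27me3 alone they were nearest Gm44169 (57.9), Foxd3 (41.4), Itga6 (29.5), an integrin subunit, Gm29931 (28.1) and Tcte2 (20.5). On both marks they were near Map2k6 (46.7), a kinase of the p38 pathway, Gm31656 (29.5), Sfmbt2 (28.1), a Polycomb group gene, Dhrs3 (24.9), a retinaldehyde reductase, and Gm47079 (24.4), the last inside Icam5. On neither mark they were near Adap2 (107), Rnf114 (103), A330048O09Rik (79.3), Plekhb1 (73.6) and Gad1 (72.4), the enzyme that makes GABA. Of the 10 strongest peaks in each class, 10, 9, 9 and 9 had a run within 100 bp. The share was 65.3% of all OLIG2 peaks and 93.3% of those above a fold of 40.

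Seen from the marks, 1368 of 21501 H3K4me3 peaks on the chromosomes (6.36%, 6.04 to 6.70) and 402 of 12676 H3K27me3 peaks (3.17%, 2.87 to 3.49) held an OLIG2 peak. H3K4me3 peaks with OLIG2 had a median mark fold enrichment of 5.96, against 4.16 without. For H3K4me3 the share rose with width, from 4.87% under 300 bp to 15.3% (11.4 to 19.9) at 2 to 5 kb, while OLIG2 peaks per Mb fell from 231 to 64.0. H3K27me3 that overlapped H3K4me3 held OLIG2 in 10.1% (8.63 to 11.6) of 1600 peaks, and H3K27me3 that did not in 2.18% (1.91 to 2.47) of 11076. Per Mb of these H3K27me3 peaks the contrast was smaller, with 40.5 and 24.6 OLIG2 peaks. A mark with a run inside held OLIG2 more often, 11.5% against 4.93% for H3K4me3 and 7.76% against 1.76% for H3K27me3. No mark peak held more than 2 OLIG2 peaks. Of the 24 H3K4me3 peaks and 10 H3K27me3 peaks with 2, the 3 with the shortest H3K4me3 were near Gm31515, Sephs1, a selenophosphate synthetase paralog, and Bicral, a subunit of a SWI/SNF complex. The 3 with the shortest H3K27me3 were nearest Gm51805, Crnde and, 26960 bp from the TSS, Ndufa10, a subunit of respiratory complex I. The Crnde region is also upstream of Irx5. Within marks of at least 1 kb, 39.2% (33.2 to 45.5) of summits on H3K4me3 and 43.0% (35.0 to 51.3) on H3K27me3 lay in the outer 20% of the way from an edge to the middle.

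The 153 peaks on both marks always sat where an H3K4me3 and an H3K27me3 peak overlapped each other. H3K4me3 had a median width of 286 bp there and H3K27me3 of 946 bp, and in 44 cases both were under 500 bp. Of these 153 peaks, 98.7% lay on H3K27me3 of OPCs and 52.9% on H3K4me3 of OPCs. For peaks on H3K27me3 alone the same shares were 86.9% and 2.70%, for peaks on H3K4me3 alone 12.3% and 68.0%, and for peaks on neither mark 7.34% and 0.826%. Most sites on H3K27me3 in NFOs were thus on it in OPCs as well.

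The OPC libraries gave higher shares. Of 7384 OPC OLIG2 peaks, 12.6% (11.8 to 13.4) lay on OPC H3K4me3, 12.5 times the shifted mean, and 10.5% (9.77 to 11.2) on OPC H3K27me3, 9.26 times. Both marks were met by 1.86%. In NFOs the ratio for H3K4me3 was thus of similar size and that for H3K27me3 was lower. H3K27me3 covered 21.8 Mb in OPCs and 14.1 Mb in NFOs, and a run lay within 150 bp of 71.1% of the H3K27me3 peaks of OPCs and of 43.3% of those of NFOs. The H3K4me3 lists differed as well. In OPCs they covered 21.3 Mb at a median width of 987 bp, with 71.0% of centres within 1 kb of a TSS. In NFOs these values were 10.4 Mb, 256 bp and 42.0%. A run lay within 150 bp of 45.4% of the H3K4me3 peaks of OPCs and of 68.6% of those of NFOs. The part of these differences in the shares was not tested, and with 1 library each no difference between the cells was tested. NFO peaks that were also listed in OPCs were more often on NFO H3K4me3 (327 of 1059, 30.9%, 28.1 to 33.8) than those of NFOs only (1065 of 15852, 6.72%, 6.33 to 7.12). These shared peaks were stronger, with a median fold enrichment of 11.4 against 7.97. At a fold of 10 to 20 the shares were 37.6% and 8.53%, and at 10 or less 19.4% and 5.74%. On H3K27me3 they were 3.68% and 2.35%, and the lower bound of the first, 2.63%, lay just above the upper bound of the second, 2.60%. Across the 20 chromosomes with at least 100 peaks, the share on H3K4me3 ran from 5.56% on chromosome 14 to 14.4% on chromosome X, and that on H3K27me3 from 0.915% on chromosome 16 to 4.61% on chromosome X.

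The state of the target gene's TSS was examined next. A gene was a target if OLIG2 had a peak between 5 kb before its TSS and its end. K4 only and K27 only mean that all mark peaks within 2 kb of the TSS were of that mark alone, bivalent that all were overlapping pairs of the marks merged into 1 region, mixed that several kinds were present, and unmarked that none was. Because merged regions can be long, the H3K4me3 part of a bivalent or mixed region may lie away from the TSS. There were 8704 targets among 41985 genes, 20.7%, and the shifts gave a mean of 6608 (6341 to 6959). Of protein-coding genes 6140 of 21938 were targets, and of lncRNA genes 2564 of 20047. Of the targets 44.6% (43.6 to 45.7) were K4 only, against 25.7% of all genes and 36.9% (35.2 to 38.4) of the targets of shifted peaks. Unmarked targets were 44.6%, against 66.7% of all genes and 52.3% (50.9 to 53.9) of shifted targets. K27 only targets were 4.11%, against 3.96% of all genes and 4.39% (3.74 to 5.12) when shifted, and bivalent ones 1.76%, against 1.37% and 1.65% (1.20 to 2.11). So only the K4 only and unmarked shares lay outside the range of the shifts, and the share of K27 only and bivalent genes was near the background. Targets were long, with a median of 46.3 kb for K4 only targets against 21.2 kb for all K4 only genes. The shifts keep the length of the genes.

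Genes with a peak at the TSS itself leaned further to H3K4me3. An OLIG2 peak lay within 1 kb of the TSS of 1740 genes, 4.14% of all. Of these, 57.6% (55.2 to 59.9) were K4 only, 2.53% K27 only, 2.18% bivalent and 32.6% unmarked. No shifted shares were computed for this set of genes. In the other direction, 9.30% (8.76 to 9.87) of K4 only genes, 6.62% (4.73 to 8.97) of bivalent genes, 2.65% (1.93 to 3.54) of K27 only genes and 2.03% (1.86 to 2.20) of unmarked genes had such a peak. Of 6140 protein-coding targets 55.5% were K4 only and 32.4% unmarked, against 38.9% and 51.5% of all protein-coding genes. Among lncRNA targets 18.5% of 2564 were K4 only, against 11.2% of all lncRNA genes.

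**Figure D5:**
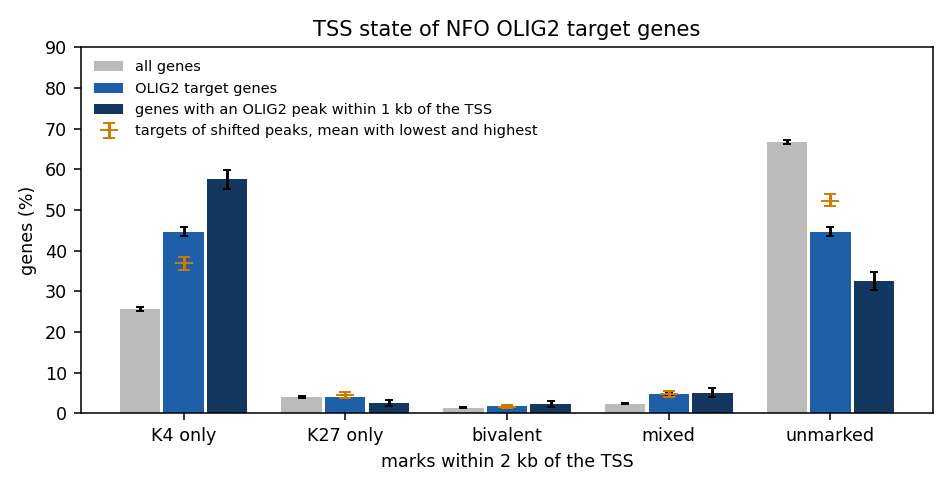
Share of genes by marks within 2 kb of the TSS, for all 41985 genes, the 8704 OLIG2 targets and the 1740 genes with an OLIG2 peak within 1 kb of the TSS, with exact 95% intervals, and the mean with lowest and highest value for targets of shifted peaks. K4 only goes from 25.7% to 44.6% and 57.6%, and the shifted targets stand at 36.9%.

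The regulators of the oligodendrocyte lineage were mostly K4 only, and their share of targets was near that of protein-coding genes. Of 15 transcription factors, 11 were K4 only, against 25.7% of all genes and 38.9% of protein-coding genes. Targets were 4 (26.7%, against 20.7% of all genes and 6140 of 21938 protein-coding genes), and 3 of these were K4 only. Olig2 itself was K4 only, with 2 H3K4me3 peaks of up to 4.90-fold, the wider of 3697 bp, and it had no OLIG2 peak. The same held for Olig1, its neighbour and paralog, for Sox10 (H3K4me3 up to 19.2-fold), Sox8, Nkx2-2, Zfp488 and Yy1. Myrf, the master regulator of myelin genes, had neither mark and no OLIG2 peak. Of the 4 targets, Zfp536 had the most peaks, with 3 on H3K4me3 alone (fold enrichment 22.7, 14.3 and 3.51) and 1 on neither mark (4.73). Its peak of 3.51 had an FDR above 0.05. Tcf7l2, an effector of Wnt signalling in oligodendrocyte differentiation, had a peak of 10.8 on H3K4me3, 567 bp downstream of the nearest of its TSSs, and peaks of 11.4 and 7.85 in introns on neither mark. Zeb2 (5.62 and 8.32), a repressor that relieves BMP and Wnt inhibition, and St18 (8.76 and 10.8), a zinc finger factor, had their peaks on neither mark. Of these 11 peaks 10 had a run within 100 bp, against 65.3% of all OLIG2 peaks.

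Myelin genes were targets in 5 of 17 cases (29.4%), against 20.7% of all genes and 6140 of 21938 protein-coding genes. Of the 8 peaks at myelin genes 7 were in introns on neither mark, and 90.2% of all OLIG2 peaks lay on neither. Mbp, which encodes myelin basic protein, had 1 (fold enrichment 8.79). Mog, a glycoprotein of the myelin surface, had peaks of 5.73 and 9.13, Cnp, a phosphodiesterase of myelin, had 1 of 8.09, and Cldn11, the tight junction protein of myelin, had peaks of 7.62 and 6.60. Ugt8a was the exception, with a peak of 17.0 on H3K4me3 2489 bp downstream of its TSS. It had another of 3.20 (FDR above 0.05) on neither mark. Its TSS had 1 H3K4me3 peak of 8.15-fold and 958 bp. Among these 8 peaks 6 had a run within 100 bp, against 65.3% of all OLIG2 peaks.

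Markers of NFOs were targets in 7 of 10 cases, against 20.7% of all genes and 6140 of 21938 protein-coding genes. These markers had 15 peaks and were long genes (median 95.4 kb). On neither mark were 13 of the peaks, close to the 90.2% of all OLIG2 peaks. A run within 100 bp was found for 8 of the 15, against 65.3% of all OLIG2 peaks. The peak of Bcas1 was 231 bp upstream of its TSS and had a fold enrichment of 23.8, yet the nearest H3K4me3 was 83239 bp away. Enpp6 was alike, with a peak of 9.06 located 1634 bp upstream and H3K4me3 200430 bp away. Tns3, a focal adhesion protein, had 6 peaks (3.86 to 11.8), of which the weakest (FDR above 0.05) lay on H3K4me3. Fyn had 4 peaks (4.35 to 15.7), Itpr2, a calcium channel of the endoplasmic reticulum, had 1 of 19.3, and Tmem163, a zinc transporter, had 1 of 7.40, all on neither mark while the genes were K4 only at the TSS. Bmp4 was the one case on H3K27me3 alone, with a peak of 11.7 located 3723 bp upstream, and its TSS was mixed. Gpr17, a receptor of the premyelinating stage, was K4 only (3.93-fold) and had no OLIG2 peak.

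At genes of other stages most peaks lay on neither mark, as did 90.2% of all OLIG2 peaks. The target counts stand against 20.7% of all genes and 6140 of 21938 protein-coding genes. OPC identity genes were targets in 9 of 12 cases, and 26 of their 28 peaks lay on neither mark although 10 of the 12 genes were K4 only. They too were long, with a median of 132 kb. Chromatin enzymes were targets in 9 of 16 cases with 21 peaks, of which 1, in Smarca4, the ATPase of SWI/SNF complexes, lay on H3K4me3 (6.85). Cholesterol synthesis genes, which supply the main lipid of myelin, were targets in 4 of 12 cases, and none of their 9 peaks lay on a mark. Neural stem cell genes were targets in 3 of 10 cases, with Notch1, a receptor of progenitor maintenance, on H3K4me3 (22.0) and Pax6 on both marks. For other cell types of the brain, with the same shares over all genes and peaks, targets were 4 of 10 astrocyte markers, 3 of 11 neuron markers, 3 of 10 microglia markers and 3 of 7 endothelial markers, and 16 of their 17 peaks lay on neither mark. The exception was in Sox9, shared by glia and progenitors, on H3K4me3 (14.4).

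Patterning genes mostly carried H3K27me3, and most of their OLIG2 peaks lay on it. All 55 homeobox, forkhead and related genes had a mark at the TSS, 17 bivalent, 34 mixed and 4 K27 only, against 66.7% unmarked over all genes. Targets were 14 (25.5%, against 20.7% of all genes and 6140 of 21938 protein-coding genes), with 20 peaks. Of these peaks 14 lay on H3K27me3, against 2.44% of all OLIG2 peaks, and 13 of them also on H3K4me3, against 0.905%. The one on H3K27me3 alone was at Dlx1 (6.86), -1722 bp from the TSS. On both marks were, among others, the peaks at the TSS of Nkx2-5 (11.9, 25 bp upstream) and Tbx3 (15.5, 365 bp downstream), and those upstream of Irx5 (13.9 and 7.44), Dlx6 (6.26) and Gata2 (7.57). These genes direct the formation of other organs and body regions. Of the 20 peaks 12 had a run within 100 bp, against 65.3% of all OLIG2 peaks. No share of shifted peaks on the marks was computed at these 55 genes or at the Hox genes. All of them had a mark at the TSS, so the shares on marks over all OLIG2 peaks are no matched baseline. In the Hox clusters, 32 of 39 genes were bivalent, against 1.37% of all genes. Targets were 6 (15.4%, against 20.7% of all genes and 6140 of 21938 protein-coding genes). There were 4 distinct peaks, in or near Hoxa10 (7.40), Hoxa2 and Hoxa3 (3.54, FDR above 0.05), Hoxb9 (11.1), and Hoxc10 and Hoxc5 (16.1). These lay on H3K27me3 alone, as did 1.53% of all OLIG2 peaks, and they were 43 to 6931 bp from H3K4me3. No run lay inside the 100 bp to either side of their summits, where 65.3% of all OLIG2 peaks had one. For 3 of the 4 a run had its middle 100 to 138 bp away, and the peak of Hoxa10 had none within 1 kb.

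Over the whole list E-boxes as a class were no more frequent at the summits than beside them, while CAGCTG was more frequent at strong peaks and, over the class as a whole, at peaks on H3K4me3 alone. In windows of 200 bp on both strands, CAGATG was present in 15.0% of all peaks against 15.1% to the sides and 11.8% of TSS windows. CAGCTG was present in 8.82% against 7.94% and 12.5%, and any CANNTG, which includes both, in 63.8% against 65.8% and 57.6%. Peaks above a fold of 20 had CAGCTG in 25.1% (21.1 to 29.5) against 10.1% to the sides and CAGATG in 20.3% (16.6 to 24.4) against 13.6%. Above 40, CAGCTG was in 25 of 45. On H3K4me3 alone CAGCTG was in 12.6% (10.8 to 14.6) against 8.68% (7.60 to 9.86), and over 3 kb from a TSS in 13.7% (10.5 to 17.4) against 7.21% (5.55 to 9.19). Within 1 kb of a TSS the intervals for summits and flanks overlapped. Peaks on neither mark had it in 8.48% (8.04 to 8.93). At a fold of 20 to 40, CAGCTG was in 17.2% (10.3 to 26.1) of peaks on H3K4me3 alone and in 23.9% (19.0 to 29.4) of those on neither mark. Peaks on H3K27me3 alone had CAGATG in 18.5% (14.0 to 23.8) against 14.3% (11.4 to 17.6), with overlapping intervals. The NFO peaks also listed in OPCs had CAGCTG in 18.7% against 9.07% and CAGATG in 19.6% against 14.8%. The core motif of CTCF, an insulator protein, was in 1.92% of all summits against 1.39% to the sides and 1.53% of TSS windows. ACAAAG was in 16.5% against 17.0% and 12.4%, TGANTCA in 5.13% against 5.71% and 4.53%, and CATATG in 5.65% against 5.58% and 2.03%. These matches are letters in the sequence and not binding sites.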

How the data were processed

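ChIP-Seq of OLIG2 and of both histone marks in NFOs and OPCs gave 1 library each, and samples were grouped by their titles. The authors mapped reads to mm10 (GRCm38) with Bowtie2, kept unique reads, used SPP for OLIG2 peaks and MACS2 in broad mode for the marks, and excluded blacklisted regions. The versions are not given in the sources used here. The deposited lists give the fold enrichment of each peak over the control, a ratio from the authors' peak caller. Beside it stands the FDR as a deposited −log10 value. All listed peaks were used. Of the OLIG2 peaks 14076 pass the filter of the Methods (FDR below 0.05, fold above 5) and 1729 have an FDR above 0.05. Of the H3K4me3 and H3K27me3 peaks, 235 and 12 lay off the chromosomes and were left out. Depth is unknown, so no interval covers it.

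Genes were those of GENCODE M21 plus NCBI lncRNAs on the same build that overlap no GENCODE gene on their strand (41985 in all). OLIG2 peaks were shifted along each chromosome 1000 times (mean, lowest and highest given, with no test), 200 times for the local shifts and for the peaks without runs. Distances run between edges, and place is the distance of the summit to the nearest TSS of any transcript. Motifs were searched on both strands. The overlap and state code was tested on simulated peaks.

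The members and gene lists were chosen with earlier results of these data known. The A and T runs, the values without them and the local shifts were chosen after seeing the data. By rule, the named genes were those with an OLIG2 peak among the oligodendrocyte transcription factors, myelin genes or NFO markers. Further named genes were those nearest the 5 strongest peaks of each class and nearest the 3 regions of each mark with the most OLIG2 peaks, and genes the study names. Genes of the other lists, and genes of these lists without a peak, were picked as examples after their values were seen. The other libraries were not used here. Scripts ran under Python 3.11.15 with SciPy 1.17.1, NumPy 2.4.6, pysam 0.24.0, pandas 2.3.3, samtools 1.23.1 and Matplotlib 3.10.9.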

Additional observations from a re-analysis of the deposited data

How the results depend on the processing

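Of 61 alternatives, 40 moved a value and 21 did not. The latter were within the 95% interval of the value or, for the ratios, within the spread over the shifts. The share of OLIG2 peaks on H3K4me3 was 8.74% with OLIG2 peaks that pass the filter of the Methods and 12.4% above a fold of 10, where that on H3K27me3 was 2.74% and on both marks 1.35%. With histone peaks that pass the filter of the Methods the 3 shares were 6.46%, 1.74% and 0.656%, above a mark fold of 5 they were 4.88%, 0.775% and 0.331%, and with marks of at least 1 kb alone 1.54%, 0.905% and 0.0710%. Counting peaks within 1 kb of the mark gave 9.18% and 2.86% for H3K4me3 and H3K27me3, and OLIG2 peaks over 3 kb from any TSS gave 3.61%, 1.84% and 0.488%. Without peaks that have a run of A or T within 100 bp of the summit the shares were 5.59%, 1.79% and 0.597%. Without a run within 300 bp of the OLIG2 peak they were 2.68%, 1.05% and 0.194%, and with the marks limited in the same way 1.51%, 0.582% and 0.0388%. These 3 settings were added after seeing the data. Target genes that were K4 only made up 42.3% with the filters of the Methods, 42.7% with a TSS window of 1 kb, 46.6% with an upstream distance of 2 kb, 55.5% among protein-coding genes and 57.7% among targets with a peak within 1 kb of the TSS. K27 only was 3.59%, 3.42% and 2.49% with those filters, that window and those promoter targets, and bivalent 2.20% for the last. A motif window of 100 bp, which holds fewer bases, gave 8.56% for CAGATG and 6.94% for CAGCTG on H3K4me3 alone and 8.61% and 4.90% on neither mark. Why these settings moved the values was not tested. Requiring 50% of the OLIG2 peak or its summit on the mark kept the shares within their intervals. No paired analysis was possible because every condition has 1 library. The limits are that the reads behind a peak are unknown, that no interval covers differences between animals, and that the antibody labels of the histone libraries go against their titles.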
